A study of Rattus norvegicus with 6 samples.

Results

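The 82 genes described here encode proteins of the cytosolic ribosome. They were taken by symbol from a table of 17143 genes, as Rpl or Rps with a number and a short suffix, plus Rplp0, Rplp1, Rplp2 and Rpsa. No entries of this set had identical values in all 6 libraries, so none was dropped. Of the 82 genes, 50 belong to the large subunit and 32 to the small subunit. The set includes 5 paralogs, Rpl3l, Rpl22l1, Rpl36al, Rpl39l and Rps27l. Fau, a core protein gene outside the naming pattern, is given with the companion genes.

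Sequencing of transcript 3' ends was applied to fibroblasts of the established rat line Rat-1, 4 h after they were placed at 25000 cells per well on extracellular matrix. The 3 groups of 2 libraries differ in that matrix: native and untreated, treated with matrix metalloproteinase 1 (MMP1), or treated with matrix metalloproteinase 13 (MMP13). Both enzymes are secreted collagenases, and the cells themselves carried no genetic change that the labels name. RNA came from the cells that adhered, so cells that did not attach are not represented. Wells were seeded in duplicate from 1 line and no separate cultures are named, so p-values measure only how these libraries vary, and that variation may be technical.

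The cytosolic ribosome is built from ribosomal RNA and a large set of ribosomal proteins. The small subunit decodes the messenger RNA, and the large subunit joins the amino acids and holds the exit tunnel. Messenger RNAs of ribosomal proteins start with a pyrimidine-rich stretch, the terminal oligopyrimidine (TOP) tract, through which growth signals acting by mTORC1 control their translation. Making ribosomes takes up a large share of a growing cell's transcription.

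Values are the deposited normalized reads, called units here. Libraries held between 161817 (MMP13 replicate 2) and 362122 reads (MMP13 replicate 1), and 3 reads, the upper limit that a count of 0 allows, came to between 2.21 and 5.04 units. That limit covers counting error only. The 10 fibroblast markers took between 2.54% and 2.89% of units in a library, while each of 6 marker lists for other cells took at most 0.0181%. Fn1 (fibronectin) was the only fibroblast marker to pass in any comparison, as lower when both remodelled matrices were averaged against native (log2 fold -0.38, limma adjusted p = 0.033). The ribosomal RNA precursor entry, Rn45s, lay at 927 and 768 units on native matrix, 1777 and 2529 after MMP1 and 1844 and 2631 after MMP13. It passed as higher against native in both comparisons and when they were averaged (log2 fold 1.33, 1.38 and 1.36), and Rn28s passed after MMP13 and in the averaged comparison (1.32 and 1.05). These entries moved in the same direction as most members, and their part in the results was not tested.

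Pyrimidine runs near the annotated start were more frequent among members than among other protein-coding promoters. Of the 82 genes, 64 matched 1 promoter in a RefSeq table (build GRCr8), 1 matched 2 and was left out, and 17 did not match. Within 20 bases on either side of the annotated start, 51 of the 64 (79.7%) had a run of at least 7 letters that are C or T on the transcribed strand, against 23.0% of 21776 other protein-coding promoters. The share was 80.0% for the large and 79.2% for the small subunit. A run counted anywhere in this window, so the share does not show that the transcripts begin with a TOP tract. The sequences below are those of the genes, among the members whose levels differed most, that matched the table. Each covers 15 bases before and 15 bases from the annotated start, with the longest pyrimidine run in capitals. The runs of Rps3 (13 letters) and Rpsa (8 letters) begin before the printed stretch and are cut by its edge. These runs and those of Rpl38 and Rpl41 end before the annotated start, and that of Rps13 begins after it. The first 6 genes passed the test as higher, and the last 5 lay lower in each remodelled library than in each native one.

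Rpl35 (large subunit; GRCr8 chr3:43165907-43165936, minus strand): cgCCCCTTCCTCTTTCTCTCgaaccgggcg

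Rpl37a (large subunit; GRCr8 chr9:81748076-81748105, plus strand): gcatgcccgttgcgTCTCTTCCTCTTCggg

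Rps14 (small subunit; GRCr8 chr18:56498245-56498274, plus strand): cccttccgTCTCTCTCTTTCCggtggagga

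Rps24 (small subunit; GRCr8 chr16:96502-96531, plus strand): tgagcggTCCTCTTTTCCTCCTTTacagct

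Rpsa (small subunit; GRCr8 chr8:128728864-128728893, plus strand): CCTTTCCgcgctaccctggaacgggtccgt

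Rpl41 (large subunit; GRCr8 chr7:1563483-1563512, minus strand): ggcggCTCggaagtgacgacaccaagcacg

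Rps18 (small subunit; GRCr8 chr20:4933730-4933759, plus strand): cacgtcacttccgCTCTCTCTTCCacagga

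Rpl10a (large subunit; GRCr8 chr20:6390518-6390547, plus strand): gaaaccttctgCCTTCTTTTCCggttcccg

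Rps13 (small subunit; GRCr8 chr1:180009646-180009675, minus strand): gccgtttcctacctcgTTCTCTCTTTgctt

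Rpl38 (large subunit; GRCr8 chr10:100200420-100200449, plus strand): cttcgTTCTTTTTCCgttgttcggtgctcg

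Rps3 (small subunit; GRCr8 chr1:163195762-163195791, minus strand): TTCCTTTCagcggcgcgcggcagcaagatg

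Genes that were higher and genes that were lower on remodelled matrix both carried such runs. In Rpl35 the longest run is 18 letters, in Rps24 17 and in Rps14 13, while in Rps18 and Rpl10a it is 11 letters each. Rpl41, at its annotated start, has none longer than 3. Of matched members with a log2 fold above 0 on the mean of both matrices, 36 of 44 (81.8%) had a run of at least 7 letters, and of those below 0, 13 of 18 (72.2%). The 6-letter motif TTCCGG, read on both strands over the whole window of 250 bases before to 50 after the start, was found in 33 of 64 members (51.6%) and in 17.6% of other protein-coding promoters. The motif CTCTTT, read on the transcribed strand over the same window, was found in 40.6% of members and 11.6% of the others, and where it lies at the start it is part of the pyrimidine run. Annotated starts are single positions, and a match is a description of letters.

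Members were among the most abundant entries. Their mean over the 6 libraries had a median of 119 units, against 2.10 units over all genes in the table, and 69 of 82 lay above the 90th percentile of the table (31.6 units). On the 3' end scale, which is not divided by transcript length, small subunit genes had a median of 140 and large subunit genes of 112 units. The 6 highest members, which include Rpl41, Rps3, Rps16, Rplp1 and Rplp0, held 29.9% of all units in the set. Rpl41, which encodes the smallest ribosomal protein, had a mean of 926 units. Rps3, which lies at the entry of the messenger RNA channel, had 863, and Rps16 had 841. From the highest to the lowest member the levels covered 926 to 0.929 units. How reads that map to several places were counted is not given in the sources used here, and ribosomal protein genes have many processed pseudogenes, so levels between members carry that uncertainty.

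**Figure D1:**
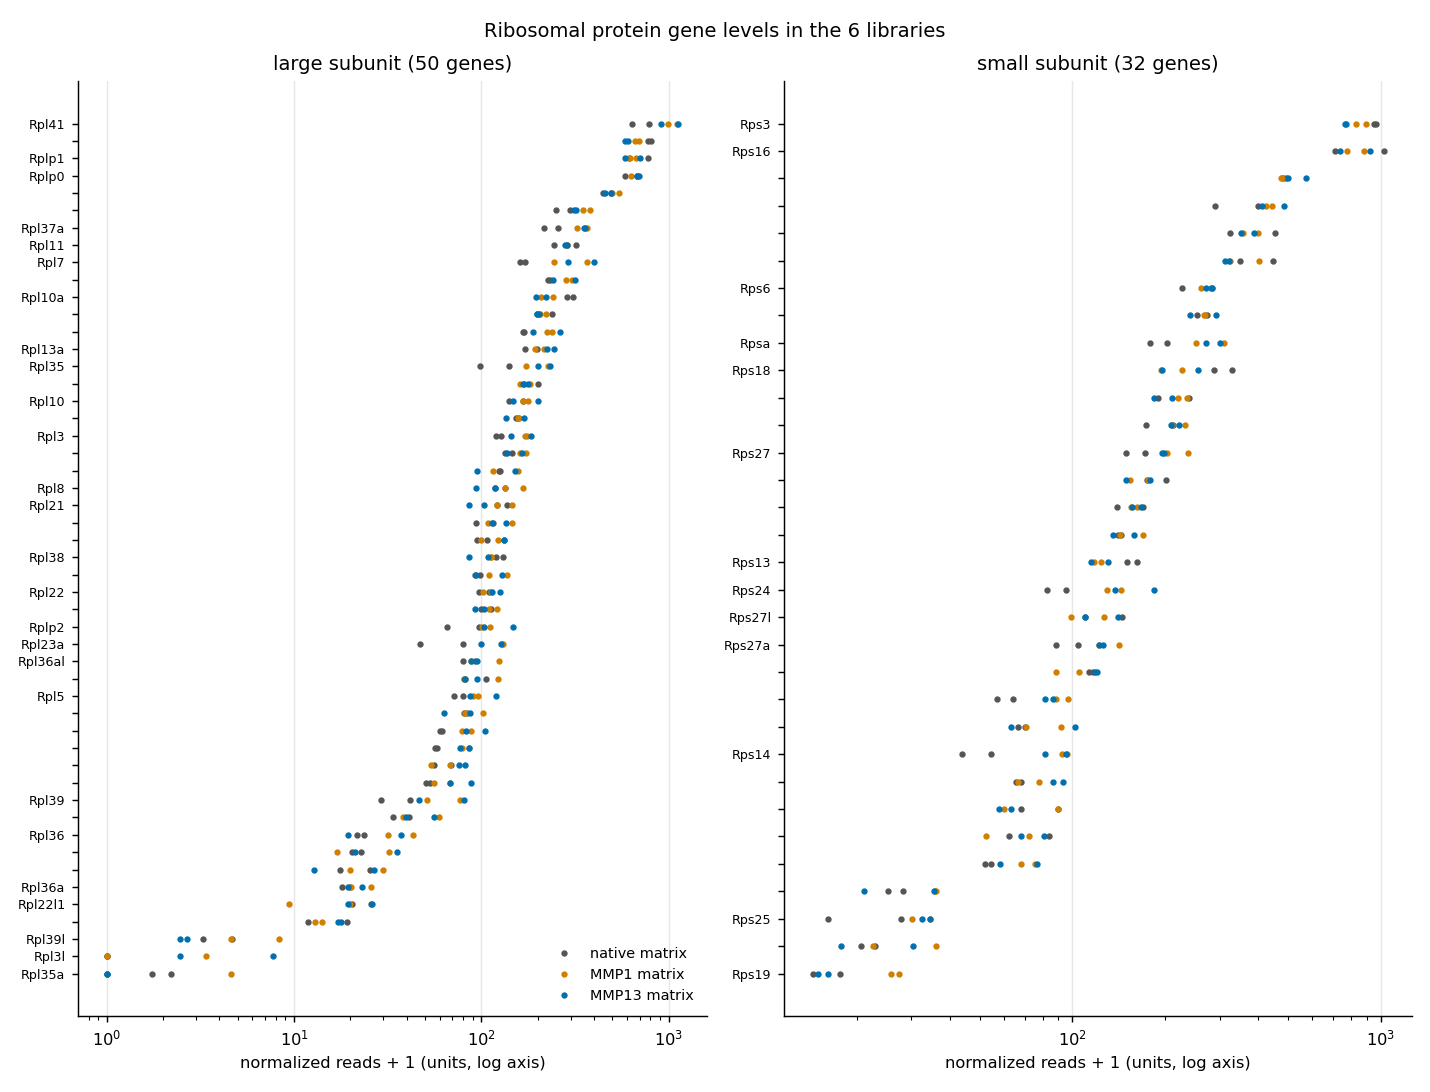
Normalized reads plus 1 (units, log axis) of each of the 82 genes, by subunit, with 1 point per library and colours for the matrix, sorted by mean, with names for some of the genes described here. Rpl41 and Rps3 lead their subunits with means of 926 and 863 units, and Rpl35a, Rpl3l and Rpl39l lie near 0.

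At the low end stood a core gene and a pair of paralogs. Rpl35a, a large subunit protein mutated in some cases of Diamond-Blackfan anaemia, was listed with 1 and 1 reads on native matrix, 0 and 3 after MMP1 and 0 and 0 after MMP13. The muscle paralog Rpl3l had 0 reads in both native libraries and at most 4 in any other, and the testis-associated Rpl39l had between 1 and 5 reads. These 3 genes did not reach 5 units in 2 libraries and were not tested. The other 79 members were tested.

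Together the members took a larger share of units in both MMP1 libraries than on native matrix, while the MMP13 libraries overlapped the native ones. The share was 5.40% and 5.72% in the native libraries, 5.91% and 6.03% after MMP1 and 6.07% and 5.61% after MMP13. Both MMP1 libraries lay above both native ones, whereas MMP13 replicate 2, the shallowest library, lay between them. Because shares are relative, more ribosomal protein RNA per cell and less RNA of other genes cannot be told apart, nor can fewer cells of a type and less RNA per cell in bulk samples.

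Over all members, the large subunit's share separated native from remodelled libraries and the small subunit's share did not, an order that turned without the 3 most abundant genes. The large subunit took 2.99% and 3.14% of units on native matrix, 3.37% and 3.54% after MMP1 and 3.57% and 3.16% after MMP13. All 4 remodelled libraries lay above both native ones, MMP13 replicate 2 by a margin of under 0.02 percentage points. Small subunit genes took 2.41% and 2.58% on native matrix, 2.54% and 2.48% after MMP1 and 2.51% and 2.46% after MMP13, and these libraries overlapped. The ratio of large to small subunit units was accordingly 1.24 and 1.22 on native matrix, 1.32 and 1.43 after MMP1 and 1.42 and 1.28 after MMP13, with no overlap between native and remodelled libraries.

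**Figure D2:**
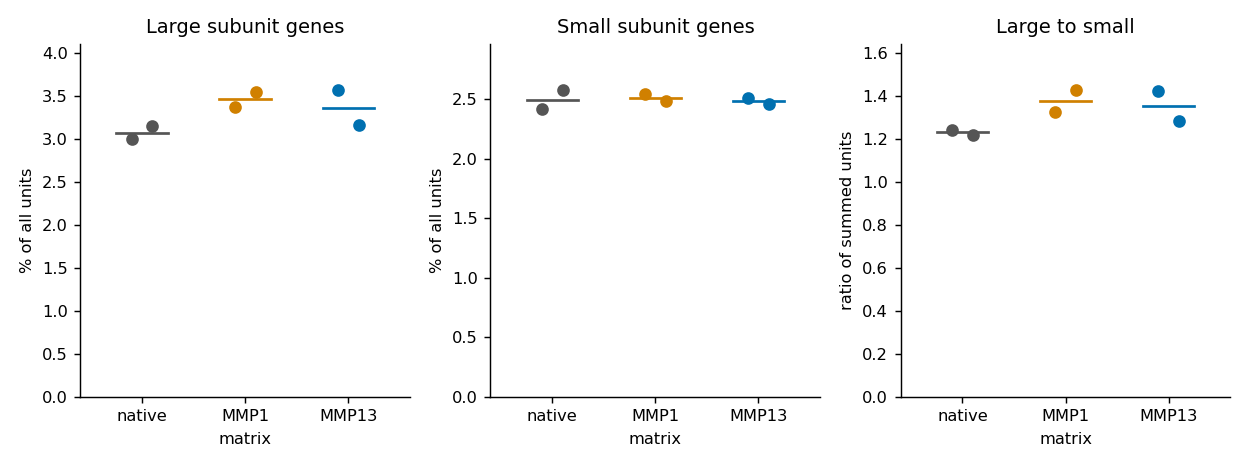
Percent of all units in large subunit genes (left) and small subunit genes (middle), and the ratio of their sums (right), by matrix, with 1 point per library and a bar at the mean of 2. The ratio is 1.24 and 1.22 on native matrix and between 1.28 and 1.43 on the remodelled ones, while small subunit shares overlap.

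The separation of the ratio and of both shares depended on the most abundant genes. Without Rpl41, Rps3 and Rps16, the 3 of highest mean, the ratio was 1.54 and 1.56 on native matrix, 1.57 and 1.68 after MMP1 and 1.62 and 1.54 after MMP13, so MMP13 replicate 2 fell below both native libraries. Large subunit genes then took 2.75% and 2.84% on native matrix and 2.82% in MMP13 replicate 2, which overlaps them. Small subunit genes then took 1.79% and 1.82% on native matrix, 1.91% and 1.86% after MMP1 and 1.94% and 1.84% after MMP13, so that all 4 remodelled libraries lay above both native ones. Which subunit separated by matrix thus depended on these 3 genes. With Rn45s and Rn28s left out of the totals instead, the members' share was 5.42% and 5.74% on native matrix, 5.95% and 6.09% after MMP1 and 6.12% and 5.67% after MMP13, in the same order as before.

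Gene by gene, the folds of both subunits were shifted upward. After MMP1 the median log2 fold against native was 0.21 for the 47 tested large subunit genes and 0.11 for the 32 small subunit genes, against 0.016 for all 7284 tested genes. After MMP13 the medians were 0.20 and 0.066, against 0.0088 for all tested genes. A fold above 0 was found for 38 of 47 large and 20 of 32 small subunit genes after MMP1, and for 32 and 21 after MMP13. Of all tested genes, 51.1% and 50.5% had a fold above 0. Both comparisons use the same native libraries, so they are not independent of each other. Whether the subunits differ in their folds was not tested.

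**Figure D3:**
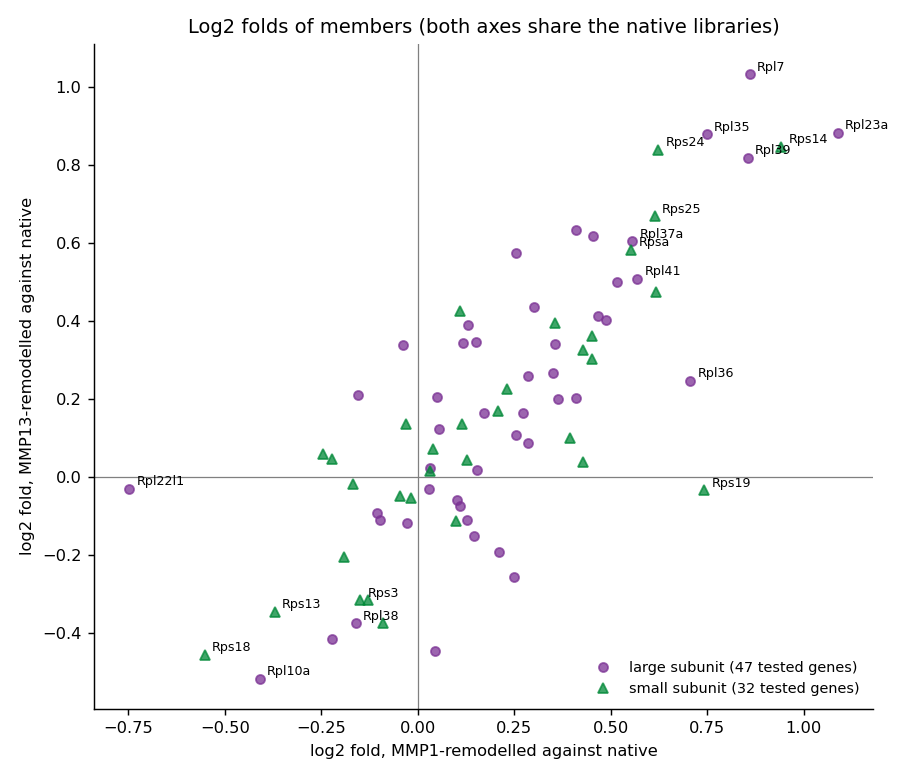
Log2 fold of each tested member after MMP1 (horizontal) and after MMP13 (vertical) against native, with circles for the large and triangles for the small subunit. Rpl7, Rpl23a, Rpl35 and Rps14 lie at the upper right and Rps18, Rpl10a and Rps13 at the lower left, and the axes share the native libraries.

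In the test of single genes after MMP1, 3 of 79 members passed as higher and 0 as lower (limma, Benjamini-Hochberg adjusted p under 0.05 over all tested genes). Over all tested genes, 0.137% passed as higher and 0.0137% as lower. After MMP13, 4 members passed as higher and 0 as lower, against 0.275% and 0.137% of all tested genes. With both remodelled matrices averaged against native, 8 members passed as higher and 0 as lower, against 0.522% and 0.124%. Abundant genes passed more often. Of the 355 tested genes at or above the members' median level, members included, 6 passed as higher and 1 as lower after MMP1. After MMP13 it was 17 and 3 of these 355, and in the averaged comparison 22 and 6. These 355 genes leave out the members below that median, and how far the excess of members goes with their level was not tested. All members that passed in either single comparison, Rpl7, Rpl41, Rpl23a, Rpl35 and Rpl37a, encode large subunit proteins, and the averaged comparison added Rps14, Rps24 and Rpsa of the small subunit. At an unadjusted limma p under 0.05, 16 members were higher and 2 lower after MMP1, where 3.98% of all tested genes were higher and 4.26% lower. After MMP13, 13 were higher and 5 lower, against 3.9% and 4.15%, and in the averaged comparison 20 and 4, against 4.83% and 4.31%. Of the 355 abundant genes, 53 were higher and 39 lower at this p after MMP1. After MMP13 it was 51 and 46, and in the averaged comparison 60 and 53.

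Rpl7, a large subunit protein, had the smallest p of all members in the averaged comparison. It lay at 159 and 170 units on native matrix, 244 and 367 after MMP1 and 288 and 396 after MMP13. Every remodelled library was above both native ones, and the remodelled replicates themselves were far apart. The log2 fold was 0.86 after MMP1 (SE 0.17, adjusted p = 8.9e-04) and 1.03 after MMP13 (SE 0.17, adjusted p = 3.8e-06). In the averaged comparison it was 0.95, or 1.93-fold, and between 0.80 and 1.09 with a library left out. There Rpl7 was called in 10 of 11 other settings with all libraries. The exception was limma run without an error trend over all genes (adjusted p = 0.69).

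Rpl41, the member with the highest mean, passed in both comparisons with native. It lay at 636 and 789 units on native matrix, 995 and 1110 after MMP1 and 1121 and 905 after MMP13, with no overlap. The log2 fold was 0.57 after MMP1 (SE 0.11, adjusted p = 3.5e-04) and 0.51 after MMP13 (SE 0.11, adjusted p = 0.0031).

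Rpl23a, whose protein sits at the rim of the exit tunnel, had the largest fold after MMP1. It lay at 46.2 and 78.5 units on native matrix, 130 and 128 after MMP1 and 126 and 99.1 after MMP13. The 2 native libraries differed more than the MMP1 libraries did. Its log2 fold was 1.09 after MMP1 (SE 0.25, adjusted p = 0.012), and 0.88 after MMP13, where it did not pass (adjusted p = 0.083). In the averaged comparison it was 0.99, and between 0.61 and 1.36 with a library left out.

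Rpl35, which also sits at the tunnel exit, and Rpl37a, a zinc-binding protein, passed after MMP13. Rpl35 lay at 97.2 and 140 units on native matrix, 225 and 172 after MMP1 and 232 and 200 after MMP13 (log2 fold 0.88 for MMP13, SE 0.20, adjusted p = 0.0085). Rpl37a lay at 214 and 254 units on native matrix, 365 and 323 after MMP1 and 354 and 356 after MMP13. Its adjusted p after MMP13 was 0.0499, at the edge of the threshold. That call held in 4 of 12 other settings with all libraries and in 1 of 6 fits with a library left out. Its reads are also those of the pseudogene entry Rpl37a-ps1, so the gene and the pseudogene cannot be told apart. After MMP1 Rpl35 (log2 fold 0.75, adjusted p = 0.10) and Rpl37a (0.56, adjusted p = 0.13) did not pass.

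**Figure D4:**
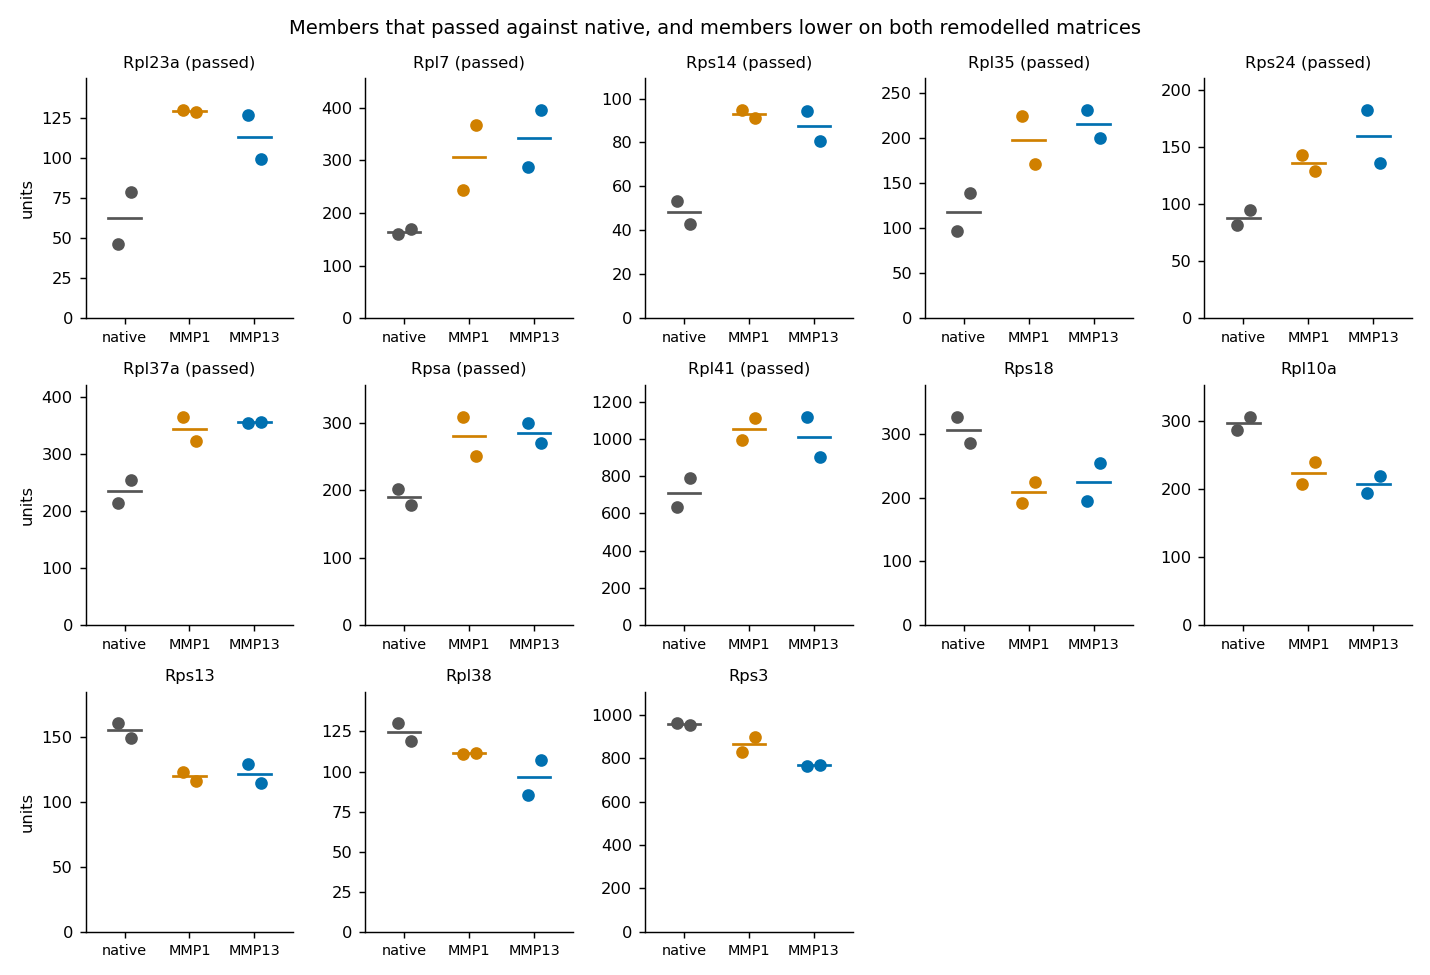
Units by matrix for the 8 genes that passed as higher in the averaged comparison (marked as passed) and 5 that lay lower in each remodelled library than in each native one without passing, with 1 point per library and a bar at the mean of 2. In each of these panels the native points lie apart from the 4 remodelled ones.

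By limma, the 3 small subunit genes passed only when both remodelled matrices were averaged. Rps14, a protein of the subunit's platform, lay at 53.5 and 43.0 units on native matrix, 94.9 and 91.2 after MMP1 and 94.1 and 80.6 after MMP13 (log2 fold 0.89, SE 0.24, adjusted p = 0.039). Rps24, mutated in some cases of Diamond-Blackfan anaemia, lay at 81.4 and 94.3 units on native matrix, 143 and 128 after MMP1 and 182 and 136 after MMP13 (log2 fold 0.73, SE 0.20, adjusted p = 0.038). Rpsa, also known as the laminin receptor precursor, lay at 202 and 178 units on native matrix, 310 and 251 after MMP1 and 299 and 270 after MMP13 (log2 fold 0.57, SE 0.15, adjusted p = 0.038). In all 3 genes every remodelled library exceeded both native ones. Each of these 3 calls was lost whichever of the 6 libraries was left out. In the averaged comparison Rpl7, Rpl41, Rpl23a, Rpl35 and Rpl37a had adjusted p of 4.2e-07, 1.6e-05, 0.0036, 0.0021 and 0.013.

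These calls depended on how the error was estimated and on individual libraries. Each gene's error was taken from a trend over all genes, and with limma run without that trend 0 members passed in any comparison. Without native replicate 1, 0 members passed after MMP1, 1 after MMP13 and 1 in the averaged comparison. Without MMP1 replicate 2, 0 passed after MMP1 and 5 in the averaged comparison. After MMP13, 1 passed without either MMP13 library, and in the averaged comparison 2 passed without MMP1 replicate 1 or MMP13 replicate 1, 5 without native replicate 2 and 4 when MMP13 replicate 2 was left out.

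Count tests were run on the recovered whole reads. By edgeR the same 3 members were higher after MMP1 (0.197% of the 4574 genes it tested passed as higher). It called 5 after MMP13, Rps24 among them with an adjusted p of 0.020 (limma 0.054), where 0.568% of its genes passed as higher. In the averaged comparison it called the same 8 members, where 0.743% passed. DESeq2 called the same 8 in the averaged comparison, where 2.19% of the 1141 genes to which it gave an adjusted p passed as higher. It called 0 members after MMP1, where 0.00679% of 14735 genes passed as higher. After MMP13 it called 5 as higher and 1 as lower, against 2.45% and 0.583% of 858 genes.

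Many more members separated by library than passed. After MMP1, 34 of 79 members (43.0%) had both libraries above both native ones, against 19.6% of all tested genes, and 9 (11.4%) had both below, against 18.8%. After MMP13 it was 32 members (40.5%) above, against 18.9%, and 9 below, against 18.6%. With all 4 remodelled libraries set against native, 24 members (30.4%) lay above, against 8.91% of tested genes, and 6 (7.59%) below, against 8.7%. Among the 355 tested genes at or above the members' median level, which separate more often, 19.4% lay above and 18.6% below in that comparison. After MMP1, 27.3% of these 355 lay above and 25.6% below, and after MMP13 26.8% and 27.3%.

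Of the members that separated upward without passing, Rpl39 had the largest averaged fold. It lay at 28.0 and 40.7 units on native matrix, 75.9 and 50.4 after MMP1 and 80.2 and 45.3 after MMP13 (averaged log2 fold 0.84, adjusted p = 0.18). Its 95% interval ran from 0.28 to 1.39, and replicates differed widely within both remodelled groups. Rps25, a small subunit protein used by viral internal ribosome entry sites, had an averaged log2 fold of 0.64 from 26.7 and 15.1 units on native matrix. Rpl36 separated upward for MMP1 only, with log2 folds of 0.71 and 0.25 (adjusted p = 0.70 and 0.93). Rplp2, a protein of the acidic stalk that recruits elongation factors, lay at 64.4 and 95.8 units on native matrix and 146 and 102 after MMP13, a log2 fold of 0.63 (adjusted p = 0.37). The other stalk genes had small folds. Rplp0, which anchors the stalk, had log2 folds of 0.06 after MMP1 and 0.12 after MMP13, and Rplp1 had -0.10 and -0.11.

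A smaller group lay lower on both remodelled matrices, and none of it passed in the main limma fit. Rps18, which contacts the large subunit at the head of the small one, lay at 328 and 286 units on native matrix, 193 and 226 after MMP1 and 195 and 255 after MMP13. All 4 remodelled libraries were below both native ones (averaged log2 fold -0.50, SE 0.15, adjusted p = 0.11). Rpl10a, at the stalk on the opposite side from the acidic proteins, lay at 287 and 307 units on native matrix, 207 and 240 after MMP1 and 195 and 220 after MMP13. Its averaged log2 fold was -0.46 (SE 0.15, adjusted p = 0.17).

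Rps3, among the most abundant members, was in this group too. It lay at 962 and 953 units on native matrix, 831 and 897 after MMP1 and 766 and 771 after MMP13 (log2 fold -0.15 and -0.32, adjusted p for MMP13 = 0.28). The libraries of the 3 matrices did not overlap, with native highest and MMP13 lowest. Rps13 lay at 160 and 149 units on native matrix and between 114 and 129 in the remodelled libraries. Rpl38, whose loss in mice alters translation of Hox transcripts, had log2 folds of -0.16 and -0.38.

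On single matrices, further members separated downward. After MMP1 these included Rps9 (log2 fold -0.25) and the paralog Rpl22l1 (-0.75), which had 13 and 7 reads there. After MMP13 they included Rpl21 (-0.45), Rps2 (-0.37) and Rps26 (-0.32). None of these passed by any of the 3 tools, and Rps26 had an unadjusted p of 0.038.

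No member passed between the 2 remodelled matrices. In MMP13 against MMP1, 0 of 79 members passed in either direction by limma, where 0.0412% of all tested genes passed as higher and 0% as lower. At an unadjusted p under 0.05, 0 members were higher and 2 lower, Rpl8 and Rpl21, against 2.58% and 2.64% of all tested genes, so the lower count is at the background. By edgeR and DESeq2 0 were called. The median log2 fold was -0.054 for large and -0.015 for small subunit genes. Both MMP13 libraries lay above both MMP1 libraries for 8 members (10.1%, against 15.9% of tested genes) and below them for 16 (20.3%, against 15.4%).

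Rpl8, part of the core near the catalytic centre, had the smallest p in this comparison. It lay at 166 and 132 units after MMP1 and 117 and 92.4 after MMP13 (log2 fold -0.51, 95% interval -0.95 to -0.064, adjusted p = 0.82). Rpl21 had a log2 fold of -0.49 and Rps19 of -0.78. Rps19, the gene most often mutated in Diamond-Blackfan anaemia, held between 9 and 22 reads per library, and stood at 24.8 and 26.4 units after MMP1 against 14.0 and 15.1 after MMP13. Rps12 (-0.39), Rpl30 (-0.24), Rpl38 (-0.22), Rps4x (-0.21) and Rpl18 (-0.21) were the other members of largest downward fold with separated libraries. Upward these included Rpl31 (0.38), Rpl7a (0.37), Rps9 (0.31), Rpl12 (0.26), Rpl13a (0.20), Rps15 (0.17) and Rpl22 (0.16).

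For Rpl41 the log2 fold between remodelled matrices was -0.06 and for Rpl7 0.17, with adjusted p of 1.0 each. The intervals, -0.28 to 0.15 and -0.16 to 0.51, do not show that the matrices act alike on these genes.

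Rpl5, Rpl11, Rps6, Rpl13a and Rps27a did not pass in any comparison. Rpl5 and Rpl11 join the 5S ribosomal RNA in a particle that can bind Mdm2 and stabilise p53. Rpl5 lay at 79.0 and 70.2 units on native matrix, 89.1 and 94.8 after MMP1 and 119 and 85.6 after MMP13 (log2 fold 0.30 and 0.43). Rpl11 had log2 folds of 0.03 and 0.02. Rps6, the main ribosomal substrate of S6 kinase, had 0.11 and 0.14, and Rpl13a, a regulator of inflammatory transcripts when released from the ribosome, 0.15 and 0.35. Rps27a, a ubiquitin fusion, lay at 87.5 and 103 units on native matrix and between 121 and 140 in the remodelled libraries (log2 fold 0.45 and 0.36).

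No paralog passed in any comparison. Rpl22 had a mean of 109 units and Rpl22l1 of 19.2. Rps27, with a mean of 191 units, had log2 folds of 0.45 and 0.30, and its p53-responsive paralog Rps27l, with 121 units, -0.17 and -0.02. Rpl36al, at 94.0 units, exceeded Rpl36a, at 20.1. Rpl3 lay at 126 and 118 units on native matrix, 174 and 170 after MMP1 and 184 and 143 after MMP13 (log2 fold 0.49 and 0.40, adjusted p = 0.46 and 0.63), while Rpl3l stayed near 0. Close copies can share reads, so the split of levels within a pair is uncertain. Rpl10 had log2 folds of 0.17 and 0.16.

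No gene of the lists in this and the next paragraph passed against native by limma, unlike the ribosomal RNA entries, Rpl37a-ps1 and Fn1 given above. Fau had log2 folds of 0.26 and 0.34 and the ribosome-associated scaffold Gnb2l1 0.07 and -0.03, and neither passed. Of 49 tested ribosome biogenesis genes, 35 had a fold above 0 after MMP1 and 31 after MMP13. From these 49, 0 passed in either comparison with native, with medians of 0.31 and 0.19. At an unadjusted p under 0.05, 4 of them differed after MMP1 and 7 after MMP13, against 8.24% and 8.05% of all tested genes, and the first count is at that share. The smallest p were those of Ncl, which encodes nucleolin (log2 fold 0.80 for MMP1, adjusted p = 0.13), and of Pno1, a small subunit assembly factor (2.34, adjusted p = 0.13), and for MMP13 that of Dkc1, the pseudouridine synthase (1.06, adjusted p = 0.43). The fold of Pno1 rests on few reads, at 1.22 and 6.79 units on native matrix and 27.7 and 14.4 after MMP1. Of 12 tested genes of RNA polymerase I and its factors, 0 passed, with medians of 0.043 and 0.047 and an unadjusted p under 0.05 for 0 and 1. A fold above 0 was found for 6 of these 12 after MMP1 and 7 after MMP13. Of 21 other transcripts known for a TOP tract, 0 passed, with medians of 0.13 and 0.059 and an unadjusted p under 0.05 for 2 and 1. A fold above 0 was found for 14 of these 21 in each comparison. The smallest p here were those of Eif4b (log2 fold -0.55 for MMP1, adjusted p = 0.54) and Eif3a (-0.49 for MMP13, adjusted p = 0.59), both initiation factor genes.

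Mitochondrial ribosomal protein genes, whose products form the separate ribosome of mitochondria, had medians of -0.057 and 0.10 over 63 tested genes. None passed by limma. At an unadjusted p under 0.05 there were 4 and 5, no more than the shares of all tested genes given above. Of the 63, 29 had a fold above 0 after MMP1 and 38 after MMP13. Mrps9 had the smallest p, with a log2 fold of 2.98 for MMP1 (adjusted p = 0.12). That fold rests on few reads, with Mrps9 at 0 and 4.53 units on native matrix and 23.4 and 13.2 after MMP1. The list's summed share of units ran from 0.507% to 0.557% over the 6 libraries.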

How the data were processed

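Each deposited value is a read count that the authors scaled by 1 size factor per library, a normalized signal: 100% of values in every library equalled a whole number of reads times that library's unit (tolerance 0.01 reads). The submitters' processing notes name bcl2fastq, TopHat, DESeq and rn5. Per the labels, libraries carried a molecular identifier of 8 nucleotides. For the counter, annotation, strand use, multi-mapped reads and identifier collapsing, nothing is given in the sources used here.

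Here log2(value + 1) was tested with limma 3.58.1 in R 4.3.3 (trended eBayes, all 6 libraries, no block) for 7284 genes with at least 5 units in at least 2 libraries. Genes were called at an adjusted p under 0.05 (Benjamini-Hochberg). Folds on this scale understate the change of weakly expressed genes. The estimated prior degrees of freedom were infinite, so a gene's error came from the trend over all genes. Recovered reads were tested with edgeR 4.0.16 and DESeq2 1.42.0 as alternatives. Scripts were tested on simulated data.

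Named members were those passing by any tool, the 8 largest folds per comparison and direction with separated libraries, the 6 highest levels and a list of members with known roles or paralogs. In companion lists, genes with the smallest p were named. The members and lists were chosen with earlier results of these data known. Results of a few genes are not reported here.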

Additional observations from a re-analysis of the deposited data

How the results depend on the processing

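No fold of a named member turned sign where it was called by the main or the alternative setting. Over all 3479 values of named members in the alternative settings, called or not, 84 calls were lost, 7 were gained and 117 uncalled folds changed sign. The number of members called higher was 3 after MMP1, 4 after MMP13 and 8 in the averaged comparison. Without the limma trend it was 0 in each. By DESeq2 it was 0 after MMP1, and 1 member was lower after MMP13. With only the 2 groups compared in the fit it was 1 after MMP13, and this fit was not run for the averaged comparison, which needs all 3 groups. In the averaged comparison it was 5 with no filter and 5 with TMM factors, and with quantile scaling 1 member was lower (Rps18, adjusted p = 0.029).

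With a library left out, the number called higher ran from 0 to 4 after MMP1, from 1 to 5 after MMP13 and from 1 to 5 in the averaged comparison, and no member was called lower. The median log2 fold of the small subunit ran from 0.066 to 0.16 after MMP13 and from 0.055 to 0.19 in the averaged comparison. After MMP1 it ran from 0.056 to 0.18. For the large subunit it ran from 0.18 to 0.24 after MMP1, from 0.090 to 0.29 after MMP13 and from 0.16 to 0.28 in the averaged comparison. Between MMP13 and MMP1 the medians crossed 0, from -0.15 to 0.088 (large) and from -0.081 to 0.013 (small). The cause of these differences was not tested.

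Shares depend on the gene set by construction. Without the paralogs and Rps27a, the large to small ratio on native matrix was 1.26, the MMP1 share of all members 5.83%, and the small subunit share 2.42% after MMP1 and 2.39% after MMP13. Without Rpl41, Rps3 and Rps16, mean shares of all, large and small subunit members were 4.60%, 2.80% and 1.80% on native, 4.95%, 3.07% and 1.88% after MMP1 and 4.87%, 2.98% and 1.89% after MMP13, with ratios of 1.55, 1.63 and 1.58.

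With the replicate number as a block, 3, 3 and 6 members were called higher in the same 3 comparisons. Same-numbered libraries deviated with correlations between -0.072 and 0.0059, so the numbers gave no sign of pairing. Depth limits the members of low level, such as Rps19 and Rpl22l1.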
